A study of Mus musculus with 4 samples.

Results

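Tetraspanins are small membrane proteins that cross the membrane several times and bind integrins, proteases and each other in clusters known as tetraspanin webs. They are known for roles in adhesion, migration, membrane fusion, vesicle release and the trafficking of their partners, and one branch, the C8 group, carries the membrane protease ADAM10 to the cell surface. In macrophages and carcinoma cells several members serve as adhesion regulators or vesicle markers. Genes were taken as members if their symbol on the array was Tspan followed by a digit, or was Cd9, Cd37, Cd53, Cd63, Cd81, Cd82 or Cd151, and if a probe set carried that symbol alone. This gave 25 genes with 56 probe sets, of 18193 genes in all. Cd63 and Tspan7 are not analysed here.

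The arrays held RNA of Kupffer cells, the macrophages that live in liver sinusoids, and of SL4, a mouse colon carcinoma line of C57BL/6 origin. The 4 groups were Clec4n-/- (Dectin-2 KO) Kupffer cells co-cultured with SL4, the same KO cells and SL4 kept apart, wild-type (WT) Kupffer cells co-cultured with SL4, and WT cells and SL4 kept apart. Kupffer cells came from C57BL/6 females of 12 weeks, were sorted on macrophage surface markers, and were lysed after 8 hours of culture, with or without SL4. For the groups kept apart the RNA of the 2 cultures was mixed, so every array held both cell types; SL4 was the same line in all groups. Each group had 1 array, the labels do not say how many mice stood behind it, and so few arrays limit how precise any value below can be.

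Values are linear MAS5 signals, and a gene was read through its brightest probe set. Signals at or under a floor of 76.1, the median signal of the whole data set, were raised to that floor before a ratio was taken. The median signal of an array lay between 72.5 and 78.4. Clec4n itself was far under the floor in all 4 arrays, at 8.19 and 8.29 in KO co-culture and KO separate culture and 17.6 and 14.2 in WT co-culture and WT separate culture. Its values therefore cannot check the genotype labels. Of 17 Kupffer cell and macrophage markers 7 were above the floor in at least 1 array, among them Cd68 and Csf1r, while Clec4f and the genes of 2 sort markers, Adgre1 and Itgam, were under it in all 4. These 7 were low, the highest signal being 263.9, of C1qb in WT co-culture. The summed signal of all 17 was at most 1240, in WT co-culture. Mertk was above the floor in 2 arrays and Cd163 in 3. Of 9 epithelial markers, Epcam alone was above it, in 3 arrays, and the keratin genes Krt8, Krt18, Krt19 and Krt20 were under it throughout. Markers of mesenchyme and matrix were above it for 8 of 10 genes, with a summed signal of 28876 in KO co-culture, 29699 in KO separate culture, 30308 in WT co-culture and 33538 in WT separate culture. Of hepatocyte markers 3 of 5 were above it, of liver endothelium 0 of 6 and of other leukocytes 0 of 10. The last list includes Ptprc, a gene of leukocytes in general, macrophages among them, which read between 13.8 and 36.4. That count therefore does not separate other leukocytes from macrophages. In such mixed cultures fewer cells of a type and less RNA per cell cannot be told apart.

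Of the 25 tetraspanin genes, 19 (76%) were above the floor, and each of these was above it in all 4 arrays. Among all genes 10637 of 18193 (58.5%) were above the floor in at least 1 array. The other 6 members, Cd37, Tspan1, Tspan10, Tspan11, Tspan18 and Tspan32, stayed between 13.9 and 67.2 in every array, so no ratio is given for them. Cd37 and Tspan32, like Cd53, are tetraspanins of leukocytes. The family's ratios, and the counts of members past a fold or p threshold, are below on the 19 measured members.

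**Figure D1:**
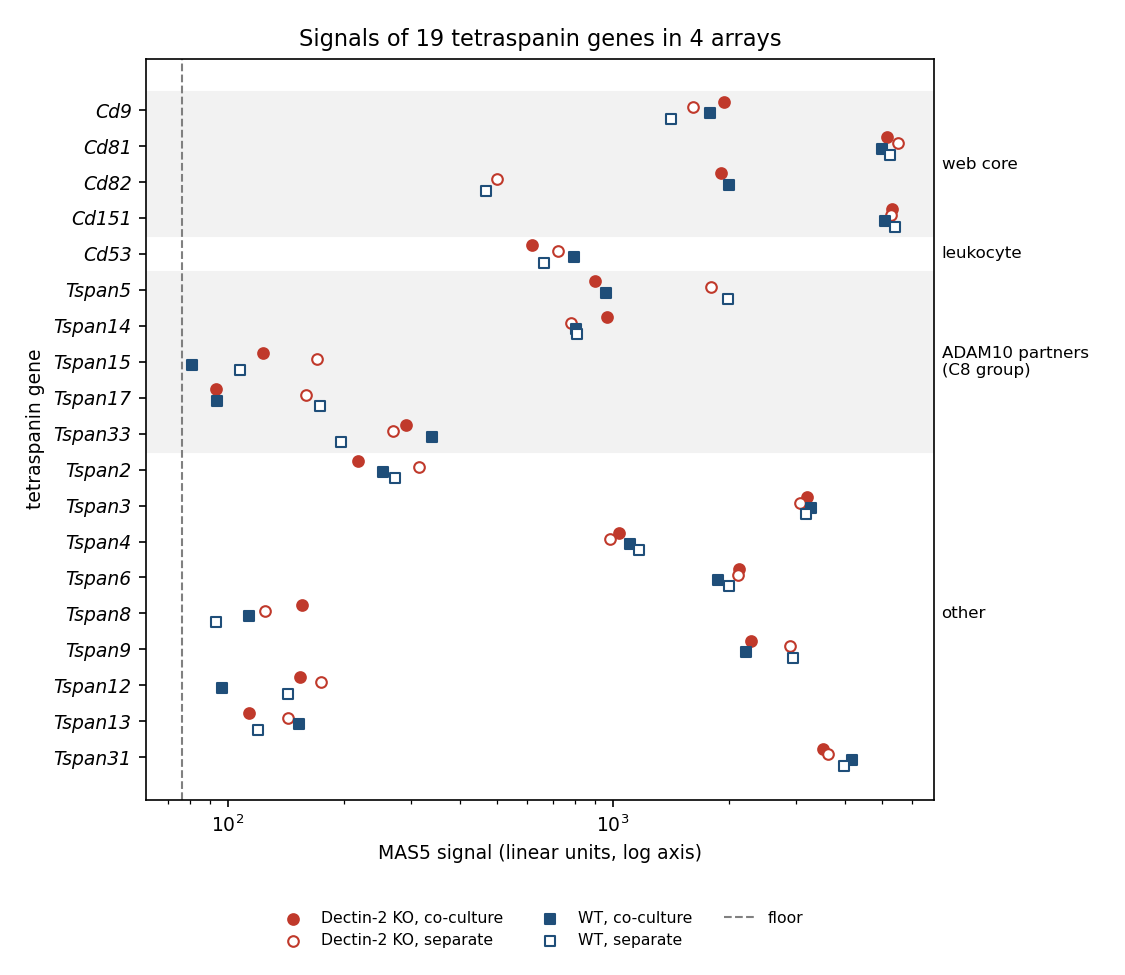
MAS5 signal (linear units, log axis) of each of the 19 tetraspanin genes above the floor, with 1 point per array; red circles are Dectin-2 KO, blue squares WT, filled symbols co-culture and open symbols separate culture, and the dashed line is the floor of 76.1. Cd82 lies to the right in both co-culture arrays (1909 and 2007, against 501 and 469.7 in separate culture), Tspan5 and Tspan17 lie to the left in both, and for most other genes the 4 points lie close together.

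Whether tumour cells and Kupffer cells alter each other's transcripts when they share a dish was asked by a comparison of co-culture with separate culture within KO and within WT. Within the family Cd82 stood out, about 4-fold higher in co-culture with either genotype, and Tspan5 was about 2-fold lower with either. Tspan17, like Tspan5 a partner of ADAM10, was 1.72-fold lower in KO and 1.86-fold lower in WT. Of the 19 members, 15 stayed within 1.5-fold in both genotypes, where 89.1% of 10224 genes did.

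Cd82, also called Kai1, encodes a tetraspanin known as a suppressor of metastasis that restrains cell migration. Its signal was 1909 in KO co-culture, against 501 in KO separate culture, and 2007 in WT co-culture, against 469.7 in WT separate culture. Both co-culture arrays were high and both separate arrays low, with no overlap. The share of all genes whose arrays separated in this way was not taken, for Cd82 or for members described likewise below. The ratio was 3.81-fold in KO, where 10 of 10444 genes had a higher one, and 4.27-fold in WT, where 9 of 10417 did. A limma fit of culture with genotype as a second term over the 4 arrays, which has 1 residual degree of freedom, put the mean change at 2.01 on the log2 scale (SE 0.10, 95% interval 1.74 to 2.28, n = 2 arrays per culture condition), with limma's adjusted p = 0.0342 over 10637 genes. Cd82 thus rose with co-culture in this fit, and it was the only member called, among 33 higher (0.31%) and 12 lower (0.113%) genes in all. At an unadjusted p under 0.05 the members were Cd82, Cd9 and Tspan8 on the higher side (6.48% of all genes) and Tspan5, Tspan9, Tspan12, Tspan15 and Tspan17 on the lower (10.6%). The call depended on the fit's settings: the adjusted p ran from 8.77e-08 to 0.925 over 8 alternatives and was under the threshold in 4 of them. The second Cd82 probe set gave no check, since it read 4.45 and 9.51 in KO co-culture and KO separate culture and 3.47 and 19.3 in WT co-culture and WT separate culture, all under the floor. A gene value taken as the median of both probe sets, floored only after that, had log2 ratios of 0.28 in KO and -0.19 in WT.

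Tspan5, a C8 tetraspanin that brings ADAM10 to the cell surface, was the member with the lowest ratio in both genotypes. Its signal was 900.5 in KO co-culture, against 1803 in KO separate culture, and 959.6 in WT co-culture, against 1996 in WT separate culture. Both co-culture arrays were low and both separate arrays high. The signal was just over 2-fold lower in KO, where 58 of 10444 genes had a lower ratio, and 2.08-fold lower in WT, where 42 of 10417 did. The mean change in the fit was -1.03 (SE 0.09, 95% interval -1.28 to -0.78), with limma's adjusted p = 0.0541, just short of the threshold of 0.05, and between 1.03e-05 and 0.304 over 8 alternatives, 4 of them under the threshold. A second Tspan5 probe set lay in the same direction, at 948 in KO co-culture, against 1433 in KO separate culture, and 840.8 in WT co-culture, against 1592 in WT separate culture. Its log2 ratios were -0.60 in KO and -0.92 in WT, so the difference was smaller there than in the brightest probe set, in KO more so than in WT.

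Cd82 and Tspan5 are the 2 members that reached 2-fold, and the regions around their starts are shown for that reason. Both are RefSeq windows of build GRCm38.p6 that run from 250 bases before the annotated transcription start to 50 bases after it, written 5′ to 3′ along the gene's strand. For Cd82, which has 4 annotated start windows, the most upstream one is given, at chr2:93462901-93463200 on the minus strand, with the 50 bases after the start in capitals. For Tspan5 the window is chr3:138741958-138742257 on the plus strand, and capitals mark matches to the 10-base NF-kappaB consensus.
Cd82: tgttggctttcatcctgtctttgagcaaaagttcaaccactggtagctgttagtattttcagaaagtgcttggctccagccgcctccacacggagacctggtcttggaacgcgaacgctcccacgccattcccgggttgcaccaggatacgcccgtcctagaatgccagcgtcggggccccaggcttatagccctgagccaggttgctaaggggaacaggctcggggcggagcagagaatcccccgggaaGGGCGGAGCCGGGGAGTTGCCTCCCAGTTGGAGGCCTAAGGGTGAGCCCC
Tspan5: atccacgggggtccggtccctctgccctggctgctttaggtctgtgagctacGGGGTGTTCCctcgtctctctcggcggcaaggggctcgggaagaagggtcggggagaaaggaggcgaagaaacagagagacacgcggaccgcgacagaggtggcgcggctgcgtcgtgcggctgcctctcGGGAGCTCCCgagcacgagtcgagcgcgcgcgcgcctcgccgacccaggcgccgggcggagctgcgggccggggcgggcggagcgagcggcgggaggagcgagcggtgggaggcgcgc
The NF-kappaB consensus was searched on both strands in all promoter windows of the RefSeq table. It occurred in 2779 of 32851 windows (8.46%), and in 4 of the 34 windows of the 24 members that the table holds, namely single windows of Tspan5, Tspan9, Tspan11 and Cd151. None of the 4 Cd82 windows held it. The Tspan5 window held 2 matches, GGGGTGTTCC starting 198 bases and GGGAGCTCCC starting 68 bases before the start. The Tspan5 window was 73.3% G or C with 43 CpG sites, and the Cd82 window 60.7% with 16.

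The count of members at 2-fold was 1 higher and 1 lower of 19 in each genotype. Over all genes 0.67% were at least 2-fold higher and 0.574% lower in KO, and 0.701% higher and 0.538% lower in WT. Cd82 and Tspan5 were those members in both genotypes, where 0.421% of 10224 genes were 2-fold higher in both and 0.225% lower in both. At 1.5-fold, Cd82 was higher in both genotypes (1.19% of genes) and Tspan5 and Tspan17 lower in both (1.28%). By genotype, 1 member was higher (2.5% of all genes) and 2 lower (4.28%) in KO, and 2 were higher (3.31%) and 2 lower (3.39%) in WT, the second higher one being Tspan33. The median log2 ratio of the 19 members was -0.04 in KO and -0.06 in WT, beside -0.02 in both for all genes.

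**Figure D2:**
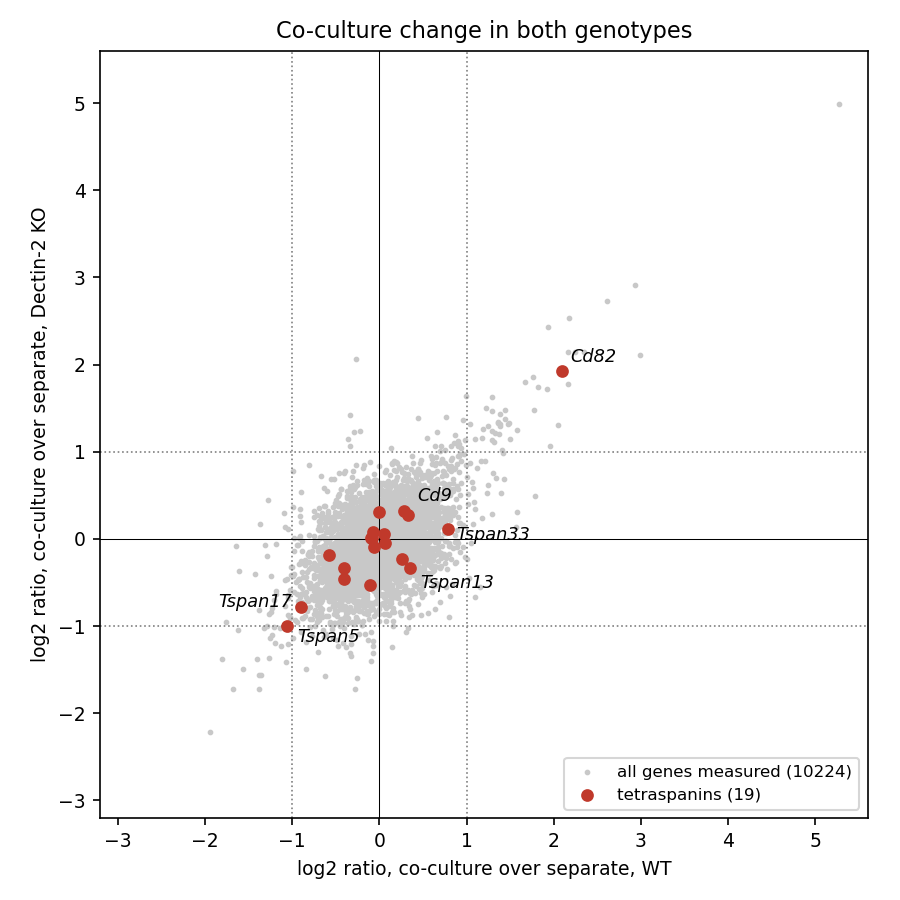
Log2 ratio of co-culture over separate culture in WT (x axis) against that in Dectin-2 KO (y axis), for the 19 tetraspanin genes (red) and all 10224 genes measured in both genotypes (grey); dotted lines mark 2-fold. Cd82 lies far to the upper right at 2.10 in WT and 1.93 in KO, and Tspan5 at the lower left 2-fold lines. Tspan17 lies just inside those lines at -0.89 in WT and -0.78 in KO, and the other members in the cloud around 0.

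The comparisons of the 2 genotypes share no array, so their ratios can be set side by side. Of the 19 members, 12 lay on the same side of 0 in both genotypes, where 63.8% of all genes did. Pearson's r between the genotypes' log2 ratios over the 19 members was 0.89, and it was 0.74 without Cd82 and 0.45 without Cd82, Tspan5 and Tspan17. These are descriptions across genes of the same 4 arrays. The 3 genes left out were those with ratios furthest from 0 in both genotypes, so a lower r without them follows from that choice. Pearson's r over all genes was not taken, so the values cannot be set against it.

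Among the widely expressed web members other than Cd82, Cd9 was modestly higher in co-culture and the others were nearly level. Cd9, needed on the egg for fusion with sperm and a common vesicle marker, read 1948 in KO co-culture, against 1612 in KO separate culture, and 1784 in WT co-culture, against 1416 in WT separate culture. Both co-culture arrays were above both separate arrays, by 1.21-fold in KO and 1.26-fold in WT. Higher ratios than these were seen for 1065 of 10444 genes in KO and 991 of 10417 in WT. The fit gave 0.30 (95% interval 0.06 to 0.55) with limma's adjusted p = 0.227. Cd81, part of the B cell co-receptor, read 5144 in KO co-culture, against 5504 in KO separate culture, and 5017 in WT co-culture, against 5243 in WT separate culture. Its mean log2 change was -0.08 (95% interval -0.33 to 0.16). Cd151, which binds laminin-receptor integrins, read 5308 in KO co-culture, against 5273 in KO separate culture, and 5103 in WT co-culture, against 5409 in WT separate culture, for a change of -0.04 (95% interval -0.29 to 0.21). The arrays of Cd151 overlapped between the cultures.

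The leukocyte tetraspanin Cd53 pointed in opposite directions in the genotypes. It read 615 in KO co-culture, against 719 in KO separate culture, and 793 in WT co-culture, against 663 in WT separate culture, log2 ratios of -0.23 and 0.26. The separate arrays lay between the co-culture arrays. Its other probe set lay under the floor in all 4 arrays, and a median that takes it in gave a log2 ratio of -0.22 in WT. The summed signal of the 17 macrophage markers was 1173 in KO co-culture, 1169 in KO separate culture, 1240 in WT co-culture and 998.9 in WT separate culture. The higher sum in WT co-culture came mostly from C1qb, at 263.9 in WT co-culture, against 100.3 in WT separate culture. The 7 measured markers had median log2 ratios of 0.07 in KO and 0.01 in WT and went both ways, with Cd5l at 0.65 and Cd163 at -0.48 in KO, and Cd68 at 0.51 and Mertk at -0.26 in WT. The part of macrophage content in the Cd53 and Cd82 values was not tested.

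Of the 6 C8 tetraspanins, the partners of ADAM10, 5 were measured, and their ratios differed among themselves. Tspan5, Tspan15 and Tspan17 were lower in co-culture in both genotypes, Tspan33 was higher in both, and Tspan14 was 1.24-fold higher in KO and level in WT. The median of the 5 was -0.46 in KO and -0.41 in WT, beside -0.02 for all genes, and 1 of the 5, Tspan5, was 2-fold lower in each genotype (0.574% of all genes in KO and 0.538% in WT) and 0 were 2-fold higher (0.67% in KO and 0.701% in WT). Markers of mesenchyme and matrix were also mostly lower in co-culture, with median log2 ratios of -0.29 in KO and -0.40 in WT. Col3a1, Acta2, Tagln, Pdgfrb and Sparc were lower in both genotypes, from -0.58 to -0.19 in KO and from -0.89 to -0.24 in WT. Fn1 was higher in both, at 0.11 in KO and 0.10 in WT, and Vim was 0.11 in KO and -0.09 in WT. Thy1 was at least 0.24 in KO and under the floor in WT. The part of mesenchyme and matrix content in the lower tetraspanin values was not tested.

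Tspan17 read 93.3 in KO co-culture, against 160.1 in KO separate culture, and 93.5 in WT co-culture, against 173.8 in WT separate culture. Both co-culture arrays were low and close to the floor. The fit gave -0.84 (SE 0.09, 95% interval -1.09 to -0.58) with limma's adjusted p = 0.0778, and between 0.00223 and 0.516 over 8 alternatives, 2 of them under the threshold. With the floor at 2 times the median the log2 ratios shrank to -0.07 in KO and -0.19 in WT, since that floor lies above both co-culture signals. The other Tspan17 probe set gave -0.59 in KO and -0.31 in WT.

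Tspan15, an ADAM10 partner linked to cadherin cleavage, read 124 in KO co-culture, against 170.5 in KO separate culture, and 81.0 in WT co-culture, against 107.6 in WT separate culture. It was lower in co-culture within each genotype, by 1.38-fold in KO and 1.33-fold in WT, while KO co-culture lay above WT separate culture. The fit gave -0.44 (95% interval -0.68 to -0.19) with limma's adjusted p = 0.143.

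Tspan33, known from red cell precursors and activated B cells, read 289.6 in KO co-culture, against 268 in KO separate culture, and 339.5 in WT co-culture, against 197 in WT separate culture. It was 1.08-fold higher in KO and 1.72-fold higher in WT. A second probe set had the larger ratio in KO instead, with log2 ratios of 0.50 in KO and 0.22 in WT, so the probe sets disagreed on which genotype differed more. Tspan14 read 967 in KO co-culture, against 779 in KO separate culture, and 803 in WT co-culture, against 805 in WT separate culture.

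Among the remaining members Tspan9, a tetraspanin of platelets, was lower in co-culture in both genotypes and by both of its probe sets. It read 2289 in KO co-culture, against 2886 in KO separate culture, and 2219 in WT co-culture, against 2934 in WT separate culture. Both co-culture arrays were below both separate arrays, by 1.26-fold in KO and 1.32-fold in WT. Lower ratios than these were seen for 1365 of 10444 genes in KO and 831 of 10417 in WT. The fit gave -0.37 (95% interval -0.62 to -0.12) with limma's adjusted p = 0.174. In the second probe set the log2 ratios were -0.62 in KO and -0.55 in WT.

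Tspan2, known from oligodendrocytes, read 217.7 in KO co-culture, against 314 in KO separate culture, and 253 in WT co-culture, against 273 in WT separate culture. All 3 of its probe sets were lower in co-culture in both genotypes, with log2 ratios between -0.63 and -0.53 in KO and between -0.38 and -0.11 in WT. Tspan12, a co-receptor component of Norrin signalling through Frizzled in retinal vessels, read 154 in KO co-culture, against 175 in KO separate culture, and 96.6 in WT co-culture, against 144 in WT separate culture. It was lower in co-culture in both genotypes, 1.13-fold in KO and 1.49-fold in WT, although KO co-culture lay above WT separate culture.

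Tspan8, a tetraspanin of carcinoma cells, read 156 in KO co-culture, against 125 in KO separate culture, and 113 in WT co-culture, against 93.2 in WT separate culture, log2 ratios of 0.32 and 0.28. Another of its probe sets opposed this with -0.32 in KO and -0.24 in WT, so the direction of Tspan8 was not settled by the array.

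Tspan13 had log2 ratios of -0.34 in KO and 0.35 in WT, in opposite directions, and its second probe set was higher in co-culture in both. Tspan3, Tspan4, Tspan6 and Tspan31 were close to level. By the brightest probe sets their co-culture ratios lay within 1.07-fold in both genotypes, with fitted log2 changes between -0.04 and 0.05. Tspan4 is known as a component of migrasomes, the vesicles left behind by migrating cells. Its signal was 1037 in KO co-culture, against 985 in KO separate culture, and 1107 in WT co-culture, against 1169 in WT separate culture. Tspan3 read 3186 in KO co-culture, against 3064 in KO separate culture, and 3278 in WT co-culture, against 3170.1 in WT separate culture. Tspan6 lay between 1876 and 2121 and Tspan31 between 3508 and 4179 over the 4 arrays. The second Tspan6 probe set was further from level, with log2 ratios of -0.29 in KO and 0.11 in WT. Those of the brightest were 0.01 and -0.09.

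Several members lie close together in the genome. Cd82 and Tspan18 neighbour each other on chromosome 2 with 0 protein-coding genes between them in RefSeq, and Tspan18 was under the floor in all arrays while Cd82 was 4.27-fold higher in WT co-culture. Tspan9 and Tspan11 on chromosome 6 and Tspan32 and Cd81 on chromosome 7 are likewise neighbours of which 1 was measured. Cd151 and Tspan4 on chromosome 7 have 1 gene between them and were both near level. Tspan31 adjoins Cdk4, a cell cycle kinase, on chromosome 10. Cdk4 had log2 ratios of -0.06 in KO and 0.10 in WT, beside -0.04 and 0.07 for Tspan31.

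**Figure D3:**
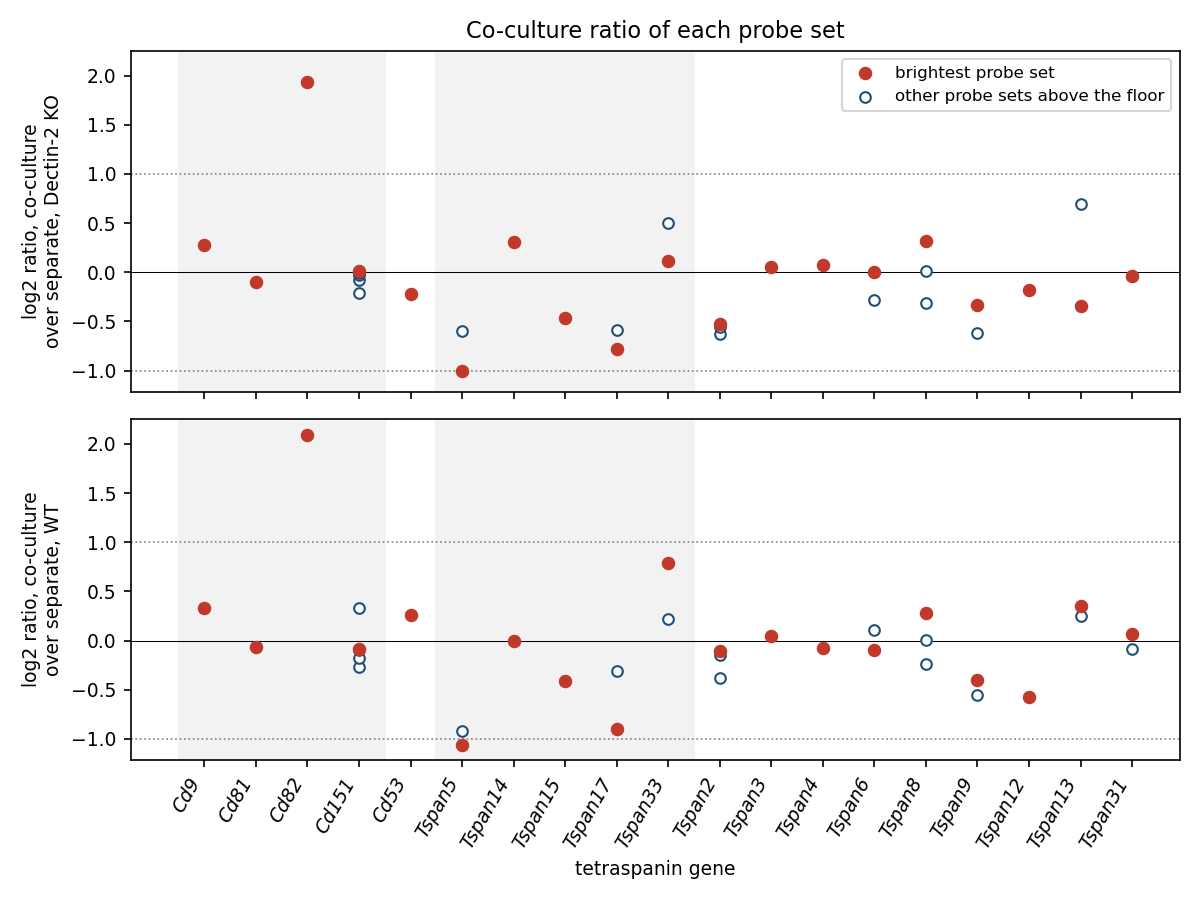
Log2 ratio of co-culture over separate culture (y axis) of every probe set above the floor in at least 1 array, by gene (x axis), in Dectin-2 KO (top) and WT (bottom); red points are the brightest probe set of a gene, open points its other ones, and dotted lines mark 2-fold. Both probe sets lie below 0 in both genotypes for Tspan5, Tspan9 and Tspan17, whereas Cd82 rests on 1 probe set. Those of Cd151, Tspan6, Tspan8 and Tspan13 lie on both sides of 0 in KO.

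Further probe sets of the same genes served as a repeat within the arrays. For 10 members with 15 further probe sets above the floor, 8 of the 15 lay on the same side of 0 as the brightest one in KO and 11 of 15 in WT. Those of Tspan2, Tspan5, Tspan9, Tspan17 and Tspan33 did so in both genotypes. In KO the brightest Cd151 probe set was at 0.01, and 0 of its 4 further ones lay on that side. The share over all genes was not taken, so these counts cannot be set against it.

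Genes around the family were read from lists. Of 30 tetraspanin partners, 29 were on the array and 18 were measured in each genotype, with medians of -0.10 in KO and 0.01 in WT. In either genotype 0 were 2-fold higher (0.67% of all genes in KO and 0.701% in WT) or lower (0.574% and 0.538%). Itga6, a laminin-receptor integrin chain, read 2078 in KO co-culture, against 3213 in KO separate culture, and 1945 in WT co-culture, against 2852 in WT separate culture. Itga5, the fibronectin-receptor chain, was the opposite, at 1023 in KO co-culture, against 713 in KO separate culture, and 1173 in WT co-culture, against 831 in WT separate culture. Neither passed the fit, with limma's adjusted p = 0.108 for Itga6 and 0.117 for Itga5. Adam10 itself read 3264 in KO co-culture, against 3643 in KO separate culture, and 3036 in WT co-culture, against 3684 in WT separate culture, a log2 change of -0.22 with limma's adjusted p = 0.353.

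Of 23 ADAM10 substrates, 22 were on the array and 15 were measured, with medians of -0.13 in KO and 0.04 in WT. In each genotype 1 was 2-fold higher (0.67% of all genes in KO and 0.701% in WT) and 0 lower (0.574% and 0.538%). Cx3cl1 read 314 in KO co-culture, against 150.3 in KO separate culture, and 334 in WT co-culture, against 204 in WT separate culture. Cxcl16 read 233 in KO co-culture, against 118 in KO separate culture, and 255 in WT co-culture, against 95.3 in WT separate culture. Both were higher in co-culture in both genotypes, Cx3cl1 2.09-fold in KO and 1.64-fold in WT, and Cxcl16 1.97-fold in KO and 2.68-fold in WT. Both encode chemokines that are made as membrane proteins and shed. Limma's adjusted p was 0.0966 for Cx3cl1 and 0.0831 for Cxcl16. Of 21 genes of vesicle export, 18 were measured in each genotype, with medians of -0.03 in KO and 0.02 in WT. Of these 0 were 2-fold higher (0.67% of all genes in KO and 0.701% in WT) or lower (0.574% and 0.538%). Sdcbp, which encodes syntenin, an adaptor of exosome formation, had log2 ratios of 0.07 in KO and -0.01 in WT. Of the tetraspanins with other names, Upk1a, Upk1b and Prph2 were under the floor throughout, and Rom1 was above it in WT co-culture alone. Tm4sf1, of the related L6 family, had log2 ratios of -0.01 in KO and -0.07 in WT.

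Whether loss of Dectin-2 from the Kupffer cells altered the family was asked by setting KO over WT within each culture. No member was 2-fold apart in either, where 0.144% of all genes were higher and 0.0962% lower in co-culture and 0.0869% higher and 0.116% lower in separate culture. Of the 19 members, 17 stayed within 1.5-fold between genotypes in both cultures, all but Tspan12 and Tspan15, where 94.8% of 10124 genes did. In the fit 0 of 10637 genes passed limma's adjusted threshold for genotype, and between 0 and 3 did over the alternatives, none of them a member. At an unadjusted p under 0.05 there were 739 genes (6.95%), 3.77% higher and 3.18% lower in KO, with 3 members higher and 0 lower. These were Tspan15, Tspan12 and Tspan8, with limma's adjusted p = 0.697 for each. Every array also held RNA of SL4, the same line in all groups. A change limited to the Kupffer cells could thus be masked in these genotype ratios.

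Tspan15 was at least 1.5-fold higher in KO in both cultures, as no other member was. Its signals of 124 in KO co-culture, against 81.0 in WT co-culture, and 170.5 in KO separate culture, against 107.6 in WT separate culture, were 1.53-fold and 1.58-fold higher in KO. At 1.5-fold, 1 member was higher in KO in separate culture (1.74% of all genes) and 2 in co-culture (1.51%), and 0 were lower in separate culture (1.05%) or co-culture (1.48%). The higher ones were Tspan15 in both and Tspan12 in co-culture at 1.60-fold. Tspan8 was 1.38-fold higher in KO in co-culture and 1.34-fold in separate culture, and its probe set that opposed the culture difference was also higher in KO, with log2 ratios of 0.18 and 0.25. Over the 4 arrays Tspan8, Tspan12 and Tspan15 lay between 81.0 and 175, not far above the floor.

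For Cd82 the genotypes could hardly be told apart. The log2 ratio of KO over WT was -0.07 in co-culture and 0.09 in separate culture, and the fitted genotype effect was 0.01 (95% interval -0.26 to 0.28). For Tspan5 it was -0.12 (95% interval -0.37 to 0.13). The co-culture change in KO minus that in WT was -0.17 for Cd82 and 0.05 for Tspan5 on the log2 scale, which was not tested, since a model with that term leaves no residual degree of freedom.

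**Figure D4:**
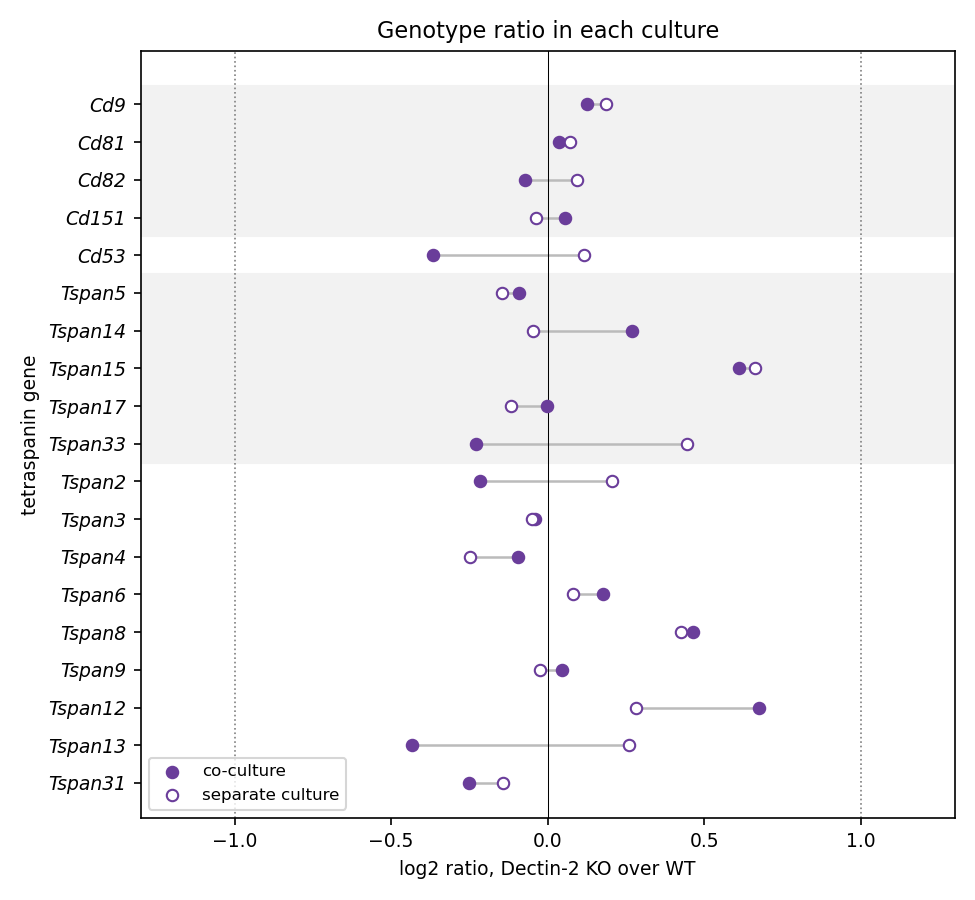
Log2 ratio of Dectin-2 KO over WT (x axis) for each of the 19 tetraspanin genes, in co-culture (filled) and in separate culture (open), joined by a line; dotted lines mark 2-fold. All points lie inside the 2-fold lines, and Tspan15, at 0.61 in co-culture and 0.66 in separate culture, is far to the right with little distance between its points.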

How the data were processed

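Expression was measured on 4 Affymetrix mouse arrays, 1 per group, from 20 ng of total RNA each. The authors deposited intensity values on a linear scale, 1 per probe set, made with Affymetrix Expression Console 1.4 and MAS5, per the submitters' processing notes. MAS5 sets the trimmed mean of every array alike (here 497 to 498), which hides any change in total RNA per cell.

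Of 45037 probe sets, 34945 carried 1 gene symbol in the platform annotation, 932 several and 9160 none listed. A RefSeq table of GRCm38.p6, matched by Entrez number, changed 0 symbols. A gene was read through its brightest probe set by mean log2 signal. Signals were floored at 76.1 and log2-transformed, and a gene at or under it in every array compared was left out. Pairwise ratios rest on 1 array each and have no test. Limma 3.58.1 (R 4.3.3) fitted culture and genotype over the 4 arrays with lmFit and eBayes on 10637 genes, with Benjamini-Hochberg adjustment and a threshold of 0.05. Its p-values take the genotypes as repeats of the culture effect, and the spread between samples may be technical. The fit was tested on simulated data. The alternatives were no floor, a floor at 2 times the median, quantile or median scaling, the median over probe sets, other filters and a mean-variance trend. All members were named by rule, and from each list the genes past 2-fold or the threshold and at most 3 others. Members and lists were chosen with earlier results of these data known.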

Additional observations from a re-analysis of the deposited data

Results flagged for a closer look

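Tspan13 was the only measured tetraspanin that pointed in opposite directions in the genotypes with a gap of at least 1.5-fold between them. It read 114 in KO co-culture, against 143.7 in KO separate culture, and 153.5 in WT co-culture, against 120.1 in WT separate culture. The co-culture change in KO minus that in WT was -0.69 on the log2 scale, and this difference was not tested. Its second probe set had log2 ratios of 0.69 in KO and 0.25 in WT, so it was higher in co-culture in both genotypes and did not repeat the opposite directions.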

How the results depend on the processing

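No paired analysis was possible because each group had 1 array and the labels carry no replicate numbers; leaving out an array was not possible for a ratio either. The main counts of members at least 2-fold apart were 1 higher and 1 lower in each genotype. With the median over probe sets they were 0 higher and 0 lower in both genotypes, and Cd82 in WT reversed to a log2 ratio of -0.19. In this alternative the median was taken before the floor, so the second Cd82 probe set entered at its signals under the floor. Quantile normalization left 0 lower in KO, where Tspan5 came to -0.97, and a common median gave 2 lower in WT, where it moved the median of all genes by -0.11. At 1.5-fold there were 2 lower in KO, and 2 higher and 2 lower in WT. In the fit, 1 member was called higher and 0 lower. Without a floor, with quantile normalization, with the median over probe sets and with no filter 0 were called higher, and with a mean-variance trend 2 were higher and 3 lower. The floor at 2 times the median and the filter for genes above the floor in all arrays each gave 1 lower, and a common median 3 lower. Over all genes the fit called 33 higher and 12 lower. The trend gave 271 and 407, a common median 219 and 641, the higher floor 110 and 124, the all-array filter 36 and 27, the median over probe sets 4 and 0, no floor 2 and 0, quantile normalization 1 and 0, and no filter 0 and 0, with 1626 genes at an unadjusted limma p under 0.05. A common median also turned Tspan3 to -0.06 and Tspan31 to -0.05 in WT. No member was called between genotypes or was 2-fold apart between them under any alternative run. The cause was not tested for the other shifts. Signals within 2 times the floor limit how large a ratio can be seen. Those of Tspan17 in both co-culture arrays were such, as were those of Tspan15 in all arrays but KO separate culture.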
